A study of Homo sapiens with 8 samples.

Results

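The Frizzled receptors are the cell-surface receptors for Wnt ligands, and 9 Frizzled genes (FZD1, FZD2, FZD3, FZD4, FZD5, FZD6, FZD7, FZD9 and FZD10) were read here among 22395 genes on 8 arrays. They were taken by name, as the family members that had a probe set with 1 gene symbol, and each had exactly 1 such probe set. FZD8 lies in a probe set with several symbols and was not analysed here. The arrays came from C4-2B, DU145, PC3 and VCaP, which are 4 lines of human prostate cancer cells, in a study that asked whether DNA-PK, a kinase of DNA end joining, acts on transcription of the Wnt pathway. In each line, cells given a non-targeting siRNA (siNTC in the labels) served as control for cells given an siRNA against DNAPK (si7DNAPK), and RNA was taken after 48 hours. A small interfering RNA, or siRNA, lowers the messenger RNA that it matches. C4-2B descends from LNCaP, and VCaP carries a fusion of TMPRSS2 and ERG. C4-2B and PC3 were grown in RPMI1640 and DU145 and VCaP in DMEM, so line and medium cannot be told apart where lines of different medium are compared, while C4-2B with PC3 and DU145 with VCaP share theirs. Every line is an established culture with 1 array per treatment, and nothing in the labels names replicate cultures, so within a line the spread between cultures is not known.

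A Frizzled protein crosses the membrane as a G-protein-coupled receptor of class F and holds Wnt through a cysteine-rich domain outside the cell. With LRP5 or LRP6 beside it, a bound Frizzled recruits Dishevelled and lets beta-catenin accumulate, whereas with ROR, RYK or planar polarity partners it acts on the cytoskeleton and on calcium. In sequence FZD1, FZD2 and FZD7 form a close group, FZD3 and FZD6 another, FZD5 pairs with FZD8, FZD9 with FZD10, and FZD4 also receives Norrin, a ligand outside the Wnt family. The ubiquitin ligases RNF43 and ZNRF3 remove Frizzleds from the surface, so the messenger RNA measured here is only part of what sets receptor number.

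Values are deposited log2 signals after robust multi-array averaging (RMA), and each difference is DNAPK siRNA minus control on that log2 scale, so that 1 is a doubling. In such bulk RNA, fewer cells with a transcript and less of it per cell cannot be told apart. Signals of different probe sets were not set against each other, because probes differ in affinity. Of 22395 genes, 16796 lay above the expression filter, a mean of 2.51 over the 8 arrays, and were tested. All 9 Frizzled genes were among them, although FZD10, with a mean of 2.62, only just passed. As a check of the treatment labels, PRKDC, which encodes the DNA-PK catalytic subunit, kept 65.0% of its control signal in VCaP, 47.2% in DU145, 25.1% in PC3 and 17.4% in C4-2B. The epithelial gene EPCAM read from 8.84 to 9.66 on all arrays. The luminal keratin genes KRT8 and KRT18 read only 3.58 to 5.14 and 4.37 to 5.47. The leukocyte genes PTPRC and CD3E read at most 2.02 and 2.95. VIM, a mesenchymal gene, had line means of 8.17 for DU145, 7.52 for PC3, 4.12 for C4-2B and 2.34 for VCaP. ERG read at least 8.57 on the arrays of VCaP and at most 3.56 elsewhere. TMPRSS2 read at least 8.68 in VCaP and C4-2B, 6.72 and 7.17 in PC3 and at most 3.37 in DU145. KLK3, which encodes prostate-specific antigen, read 10.12 in the C4-2B control but only 4.46 in the VCaP control. KLK3 thus did not bear out the label of VCaP.

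FZD4 was the receptor gene with a lower signal after DNAPK siRNA in each line, and it also differed most between the lines. Its lower signal did not pass the adjusted test, as given below. The annotated start of FZD4 lies close to that of a divergent transcript, FZD4-DT. The stretch between the 2 starts is shown as sequence only, since promoter activity was not measured here. In RefSeq (GRCh38.p14) it covers chr11:86955396-86955620, 225 bases, upstream of FZD4 and outside both transcripts. It is written from 5′ to 3′ on the minus strand, the strand of FZD4, with the GC box GGGCGG and the CCAAT box in capitals on either strand.

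FZD4 to FZD4-DT: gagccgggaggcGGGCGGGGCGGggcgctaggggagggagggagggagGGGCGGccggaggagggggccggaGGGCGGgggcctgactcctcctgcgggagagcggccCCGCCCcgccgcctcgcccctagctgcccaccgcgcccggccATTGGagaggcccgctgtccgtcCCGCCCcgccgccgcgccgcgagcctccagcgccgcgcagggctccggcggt

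This stretch was 83.6% G or C. It held 6 GC boxes, of which the first pair share a base, and 1 CCAAT box beginning 75 bases before the start of FZD4. Over the 250 bases before a start, the median share of G or C was 58% for the 35116 promoters in the table. The letters GGGCGG occurred in 42.6% of these promoters, and CCAAT in 32.0%. The table also held FZD1, FZD5 and FZD9. In that window FZD5 had 6 GC boxes and 1 CCAAT box, FZD1 had 1 and 1, and FZD9 had 2 and 0. The share of G or C there was 80.8% for FZD4, 76.8% for FZD5, 72.4% for FZD9 and 65.2% for FZD1. The TATA box letters TATAAA and the TCF/LEF core CTTTGA, which occurred in 10.7% and 11.2% of all promoters on either strand, were in none of the 4 windows. The array read FZD4-DT near the filter level, from 2.50 to 3.12. Its differences were 0.35 for PC3, 0.09 for DU145, 0.07 for VCaP and -0.18 for C4-2B, so it did not share the direction of FZD4.

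**Figure D1:**
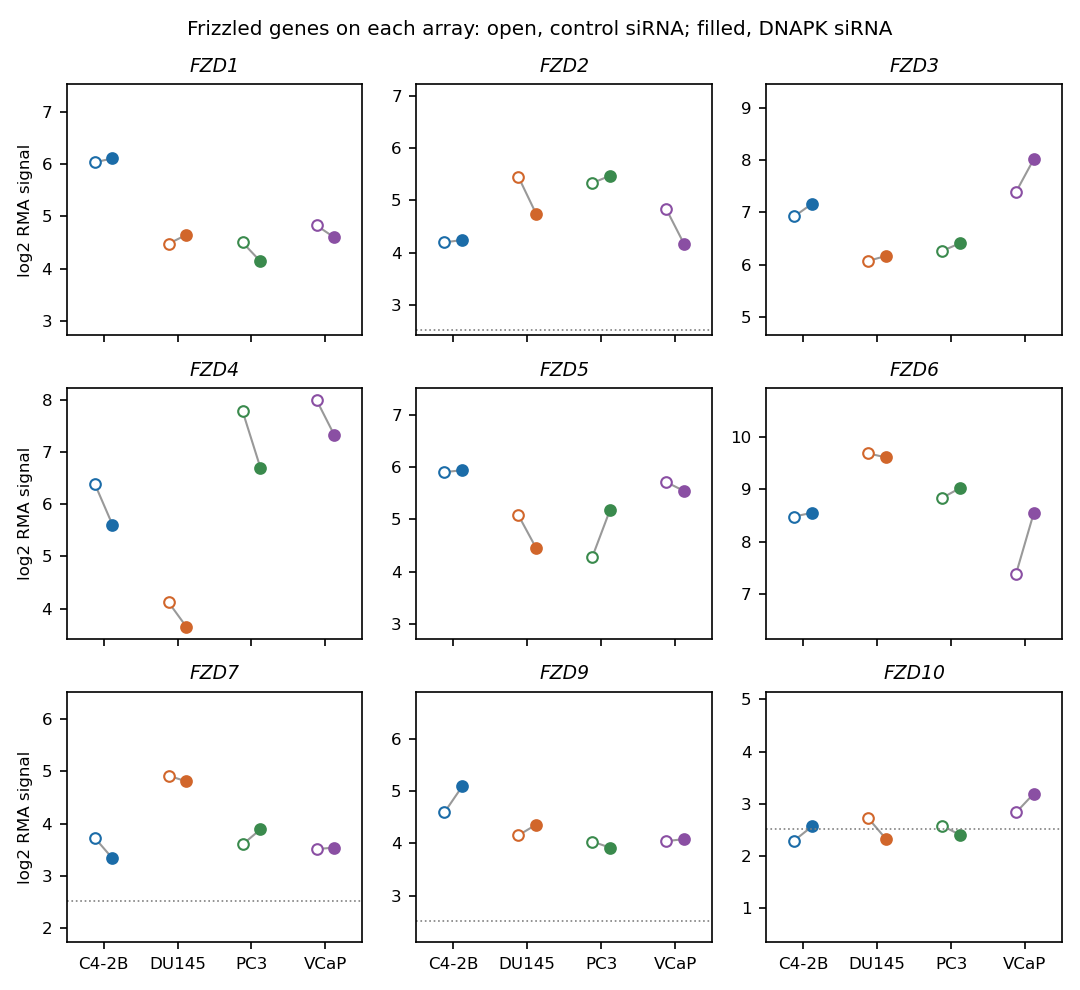
Log2 RMA signal (y axis) of each Frizzled gene on the 8 arrays, by cell line (x axis), with an open point for the control and a filled point for the DNAPK siRNA array of a line. All panels span the same number of log2 units, and the dotted line is the filter level of 2.51. The filled point of FZD4 lies below the open one in all 4 lines, and its signal ran from 3.65 in DU145 to 7.99 in VCaP.

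FZD4 encodes the receptor for Norrin as well as for Wnts and is best known from the growth of retinal vessels. From control to siRNA, C4-2B went from 6.39 to 5.61, DU145 from 4.12 to 3.65, PC3 from 7.78 to 6.70 and VCaP from 7.99 to 7.32. The DNAPK siRNA array was thus the lower of the pair in 4 of 4 lines, while the 2 treatments overlapped across lines because the lines themselves lay far apart. The differences of -0.79, -0.47, -1.08 and -0.67 left 58.0%, 72.3%, 47.4% and 62.8% of the control signal. Their mean was -0.75 ± 0.26 (SD, n = 4 lines), which is 59.4% of control, with a limma 95% interval from -1.06 to -0.44. Ranked by unadjusted p FZD4 stood in place 4 of 16796 genes, but it missed the threshold after Benjamini-Hochberg adjustment over the whole table (limma, adjusted p = 0.688). Of all genes 0% passed that threshold, while 7.19% lay under an unadjusted 0.05, 2.99% with a lower and 4.2% with a higher signal. An exact 2-sided sign-flip test of 4 pairs cannot go below 0.125, the value FZD4 reached. A signal lower in 4 of 4 lines was found in 5.89% of all genes as deposited, in 8.34% with each array centred on its median and in 8.45% with cyclic loess, and FZD4 was among them each time. Counting from the lowest difference of a line, FZD4 took place 58 for PC3, 154 for C4-2B, 1073 for DU145 and 1226 for VCaP.

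The PC3 value was the single Frizzled difference past -1, where 0.542% of all genes in PC3 lay. PRKDC and FZD4 are set side by side here without a correlation, since 4 lines are too few for one. C4-2B had 17.4% of PRKDC and 58.0% of FZD4 left, and PC3 had 25.1% and 47.4%. DU145 had 47.2% and 72.3%, and VCaP had 65.0% and 62.8%. C4-2B and PC3 thus had the least of both, in a different order. Leaving out any 1 line moved the mean difference of FZD4 only between -0.85 and -0.64.

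Between lines, FZD4 had the widest span of the family. The means of a line's 2 arrays were 7.66 for VCaP, 7.24 for PC3, 5.998 for C4-2B and 3.88 for DU145, so that VCaP stood 13.7-fold above DU145, a line grown in the same medium. For such levels the error of the fit is the spread of the siRNA response between lines, not that of replicate cultures, and p-values may therefore be too small for levels of lines. With that limit, FZD4 passed the test for any difference between lines (limma F test, adjusted p = 1.2e-05) and 5 of 6 pairs of lines. VCaP and PC3, the exception, did not differ beyond the spread (difference 0.42, limma adjusted p = 0.114), and their arrays overlapped, with 7.78 in the PC3 control above 7.32 in VCaP with siRNA.

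FZD3 and FZD6, the receptors best known from planar polarity, axon guidance and the orientation of skin hairs, had mean differences above 0. For FZD3, C4-2B went from 6.92 to 7.17, DU145 from 6.07 to 6.17, PC3 from 6.26 to 6.41 and VCaP from 7.396 to 8.02. The DNAPK siRNA array was higher in 4 of 4 lines, as in 11.5% of all genes (7.91% after median centring and 7.84% with cyclic loess, where the difference in DU145 shrank to 0.00528). The mean difference was 0.28 ± 0.24 (SD, n = 4 lines), with an interval from -0.0252 to 0.58, and did not pass (limma, adjusted p = 0.688). Without VCaP it was 0.16. For FZD6, C4-2B went from 8.48 to 8.55, DU145 from 9.69 to 9.61, PC3 from 8.84 to 9.02 and VCaP from 7.39 to 8.56. The VCaP control was the lowest array of all, and its difference of 1.17 (224% of control) was the single Frizzled value past 1, where 1.29% of all genes in VCaP lay. FZD6 thus had a mean of 0.34 ± 0.56 (limma, adjusted p = 0.723), and 0.0607 without VCaP.

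VCaP is also the line in which PRKDC kept the most signal and in which most genes went past 1 in either direction, 216 higher and 406 lower (1.29% and 2.42%). The part of that wider spread in the FZD6 value was not tested.

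The line levels of FZD3 and FZD6 ran in opposite order. FZD3 had means of 7.71 for VCaP, 7.04 for C4-2B, 6.34 for PC3 and 6.12 for DU145. All 4 arrays of VCaP and C4-2B lay above the 4 of PC3 and DU145. FZD3 passed in 5 of 6 pairs, the exception being PC3 with DU145 (limma, adjusted p = 0.426). FZD6 had 9.65 for DU145, 8.93 for PC3, 8.52 for C4-2B and 7.97 for VCaP. Neighbours in that order did not differ beyond the spread, with adjusted p of 0.105, 0.317 and 0.191 (limma), but DU145 stood 3.20-fold above VCaP and 2.19-fold above C4-2B and PC3 stood 1.94-fold above VCaP (adjusted p = 0.00286, 0.0194 and 0.0326).

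**Figure D2:**
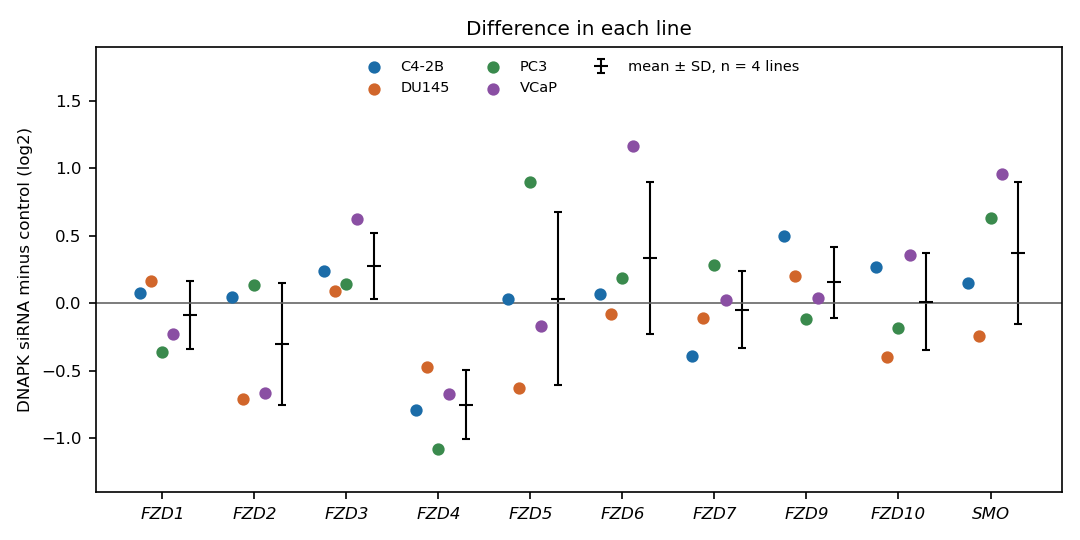
Difference between the DNAPK siRNA array and the control array (y axis, log2) for each Frizzled gene and for SMO (x axis), with 1 coloured point per line and, in black, the mean ± SD over 4 lines. FZD4 lies below 0 in all 4 lines and FZD3 above 0 in all 4, whereas FZD5 runs from -0.63 in DU145 to 0.90 in PC3.

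FZD1, FZD2 and FZD7, close relatives that serve beta-catenin signalling in many tissues, showed no shared direction. FZD2, a receptor for WNT5A with ROR partners, went from 5.45 to 4.74 in DU145 and, in VCaP, from 4.83 to 4.17, whereas C4-2B went from 4.198 to 4.24 and PC3 from 5.33 to 5.47. The lower values of FZD2 belonged to DU145 and VCaP, 61.2% and 63.0% of control, while PC3 lay slightly above control and C4-2B changed side with scaling (0.0456 as deposited, -0.0118 with median centring, -0.0225 with cyclic loess). Its mean difference was -0.30 ± 0.45 (limma, adjusted p = 0.720), and -0.16 without DU145 or -0.17 without VCaP. FZD1 had differences of 0.17 for DU145, 0.07 for C4-2B, -0.23 for VCaP and -0.36 for PC3, with a mean of -0.0867 ± 0.25 (limma, adjusted p = 0.880). FZD7, a receptor much studied in stem cells, had 0.29 for PC3, 0.03 for VCaP, -0.11 for DU145 and -0.39 for C4-2B and a mean of -0.0465 ± 0.28 (limma, adjusted p = 0.943).

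In level, FZD1 and FZD7 each singled out 1 line. FZD1 stood out in C4-2B, with 6.04 and 6.11 on the arrays of that line and 4.14 to 4.83 on the other 6. Its C4-2B mean was 2.57-fold to 3.37-fold above those of VCaP, DU145 and PC3 (limma, adjusted p = 0.00129, 6.36e-04 and 2.88e-04), and these 3 did not differ among themselves beyond the spread. FZD7 stood out in DU145, at 4.92 and 4.81 against 3.34 to 3.89 on the other arrays. The excess of DU145 was 2.17-fold over PC3, 2.51-fold over C4-2B and 2.52-fold over VCaP (limma, adjusted p = 0.00454, 0.00151 and 0.00124). FZD2 had its highest mean in PC3 (5.40), then DU145 (5.10), VCaP (4.50) and C4-2B (4.22). Neighbours did not differ beyond the spread (adjusted p of 0.405, 0.0943 and 0.433), while PC3 passed against VCaP and C4-2B and DU145 against C4-2B.

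FZD5, which is known from the eye and from Paneth cells of the gut, had the widest range of responses. Its signal went from 4.28 to 5.18 in PC3 and from 5.08 to 4.45 in DU145, while for C4-2B the arrays read 5.90 and 5.94 and for VCaP 5.71 and 5.54. The PC3 difference of 0.90 was in place 142 from the highest of that line and the DU145 difference of -0.63 in place 562 from the lowest. The mean of 0.0349 ± 0.64 (limma, adjusted p = 0.975) lay near the value of C4-2B and far from those of PC3 and DU145, and without PC3 it was -0.25. In level FZD5 had means of 5.92 for C4-2B, 5.63 for VCaP, 4.76 for DU145 and 4.73 for PC3. C4-2B passed against DU145 and PC3 (2.23-fold and 2.28-fold, limma, adjusted p = 0.0264 and 0.0232), whereas VCaP missed the threshold against the same lines (0.0654 and 0.0595).

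FZD9, a gene of the region deleted in Williams syndrome, and FZD10 completed the family. For FZD9, C4-2B went from 4.60 to 5.09, DU145 from 4.16 to 4.36, PC3 from 4.04 to 3.92 and VCaP from 4.04 to 4.08. Both C4-2B arrays were above all others. The mean difference was 0.16 ± 0.26 (limma, adjusted p = 0.777), and 0.0419 without C4-2B. The C4-2B level was 1.501-fold above DU145, 1.72-fold above VCaP and 1.82-fold above PC3 (limma, adjusted p = 0.0469, 0.0158 and 0.00929). FZD10 read between 2.30 and 3.20 on all arrays, around the filter level, and was the 1 member that did not pass between lines (limma F test, adjusted p = 0.133). Its differences were 0.36 for VCaP, 0.27 for C4-2B, -0.18 for PC3 and -0.40 for DU145. FZD10-AS1, the antisense neighbour of FZD10, read between 2.52 and 3.51.

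**Figure D3:**
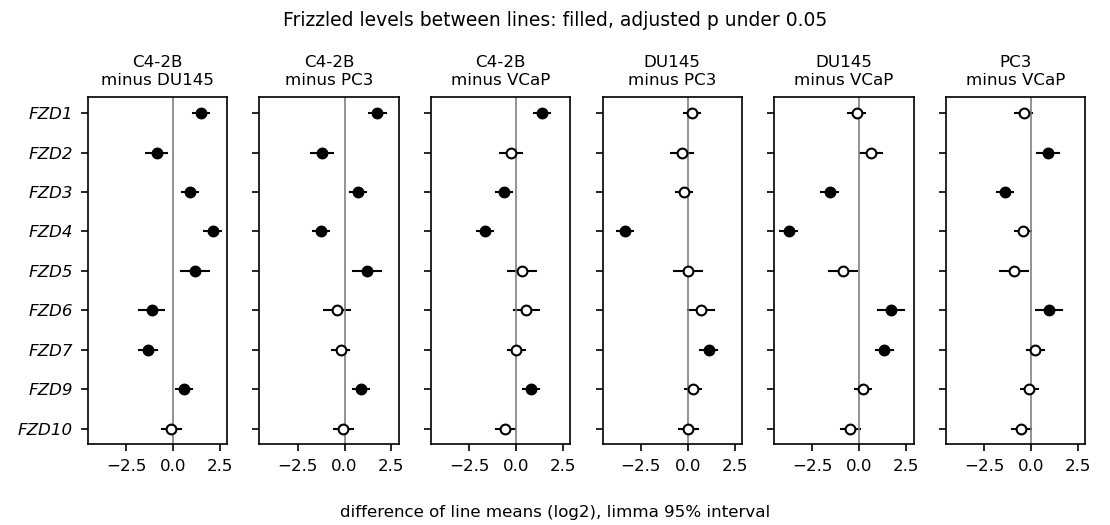
Differences between the means of 2 lines (x axis, log2, each mean over both arrays of a line) for each Frizzled gene (y axis), with limma 95% intervals in the 6 pairs of lines. Filled points passed at an adjusted p of 0.05, and C4-2B with DU145 holds the most of them, 8 of 9.

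Over the family, 8 of 9 genes passed the F test between lines, all but FZD10, where 62.6% of all tested genes passed. In the 6 pairs, 8 genes passed between C4-2B and DU145 (34.5% of all genes), 6 between C4-2B and PC3 (36.2%), 4 between C4-2B and VCaP (34.7%), 2 between DU145 and PC3 (30.5%), 4 between DU145 and VCaP (41.7%) and 3 between PC3 and VCaP (41.1%). C4-2B was higher than DU145 in 5 of its 8 genes (FZD1, FZD3, FZD4, FZD5 and FZD9) and lower in 3 (FZD2, FZD6 and FZD7). DU145 and PC3 differed in FZD4, lower in DU145, and in FZD7, higher there. The median range of line means was 1.34 for the Frizzled genes and 0.91 for all genes tested. The count between PC3 and VCaP depended on scaling, with 6 genes after median centring, where the share of all genes was not counted. The count between C4-2B and DU145 was 7 with no filter and 7 with an intensity trend and a robust prior.

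After DNAPK siRNA, 0 of the 9 passed the adjusted test, nor did any other gene (0%). FZD4 alone of the 9 had an unadjusted p under 0.05 (limma), as did 7.19% of all genes. PRKDC, the target of the siRNA, missed the adjusted test too (limma, adjusted p = 0.688). A miss in this test therefore does not show that a gene had no response. The family's median mean difference was 0.0136, against 0.0274 for all genes tested. It was -0.0180 with median centring, -0.0158 with cyclic loess, -0.0392 without VCaP and 0.14 without DU145. As deposited, 5 members lay above 0 and 4 below, where 56.4% and 43.6% of all genes lay. By line, 7 of 9 members were above 0 for C4-2B, 5 for VCaP, 5 for PC3 and 3 for DU145, with medians of 0.07, 0.03, 0.14 and -0.11. Of all 16796 genes, 9590, 8340, 9330 and 9553 were above 0 in these lines. The C4-2B count depended on scaling, since FZD2 and FZD5 turned to -0.0118 and -0.0208 with median centring and to -0.0225 and -0.0359 with cyclic loess. FZD4 had the lowest difference of the family in C4-2B, PC3 and VCaP, and FZD2 in DU145.

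The difference between the responses of C4-2B with VCaP and of DU145 with PC3 was tested as a contrast of its own. None of the 9 genes passed (limma, adjusted p of 0.991 to 0.996), nor did any other gene (0%). Without adjustment 621 genes (3.7%) lay under 0.05 by limma. They included FZD10, near the filter level, with a difference of 0.60 between responses of 0.32 and -0.29. For FZD4 the responses were -0.73 and -0.77, a difference of 0.0440 with an interval from -0.64 to 0.73. For FZD6 they were 0.62 and 0.06, with an interval of the difference from -0.33 to 1.46. Both intervals spanned 0, so the 8 arrays did not settle the sign of either difference.

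SMO, the class F relative that carries Hedgehog signals, read 4.78 and then 5.74 in VCaP and 5.64 and then 6.27 in PC3, with smaller differences of 0.15 for C4-2B and -0.24 for DU145. Its mean difference was 0.37 ± 0.53 (limma, adjusted p = 0.693), and 0.18 without VCaP.

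The genes on which Frizzleds depend were read from lists of 87 genes, of which 84 were measured and 77 tested. None passed over the 4 lines, 4 were higher and 1 lower at an unadjusted p under 0.05 (limma), near the 4.2% and 2.99% of all genes, and the median of 0.0191 was close to that of all genes. These 5, given as a description, were the ligand genes WNT10A (0.45 ± 0.50) and WNT2B (0.34 ± 0.21), the beta-catenin co-activator genes BCL9L (0.58 ± 0.60) and PYGO2 (0.30 ± 0.14), all higher, and the secreted antagonist gene SFRP4 (-0.32 ± 0.25), lower (SD, n = 4 lines). SFRP4 read near the filter level, with a mean signal of 2.58 over the 8 arrays. BCL9L had 1.48 in VCaP and a mean of 0.28 without that line. Ligands had a median of 0.06 over 19 tested genes, 11 of them above 0. Intracellular transducers had 0.10 over 16, with 4 higher in 4 of 4 lines, as were 11.5% of all genes, or 7.91% after median centring. Planar polarity partners had 0.05 over 8, with VANGL2 at 0.18 ± 0.25 (0.0661 without DU145) and PRICKLE1 at -0.18 ± 0.11. Co-receptors and receptor partners had -0.16 over 9, with 7 below 0, where 43.6% of all genes lay, and without C4-2B their median was -0.0234. Farthest from 0 were ROR2 (-0.28 ± 0.21) and ROR1 (-0.20 ± 0.40, but -0.0269 without VCaP). Soluble antagonists had -0.07 over 8, with KREMEN2, which internalises LRP6 with DKK proteins, at -0.25 ± 0.34 (-0.14 without DU145 and -0.16 without VCaP). The ligand secretion list held 2 tested genes, WLS, the carrier that takes Wnts to the surface, at 0.0935 ± 0.47, and NOTUM, which strips Wnts of their lipid, at 0.0654 ± 0.42. Turnover and R-spondin genes had -0.0615 over 8, and 0.0467 without DU145. Feedback targets had -0.00980 over 7, among them AXIN2 (-0.27 ± 0.24), which was lower in 4 of 4 lines, as were 5.89% of all genes, and SP5 (-0.20 ± 0.34). Without DU145 these were -0.16 and -0.0645.

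Direct partners of FZD4 were looked at with their values already known. TSPAN12, a tetraspanin that joins FZD4 in Norrin signalling, was lower in 4 of 4 lines, as were 5.89% of all genes. Its differences ran from -0.26 in VCaP to -0.05 in DU145, with a mean of -0.16 ± 0.0853 (limma, adjusted p = 0.737). LRP5, the co-receptor in the same complex, had 0.0037 for C4-2B, -0.31 for DU145, 0.02 for PC3 and 0.64 for VCaP, and LRP6 had 0.02, -0.30, 0.08 and -0.53, so they shared no direction. NDP, which encodes Norrin, read near the filter level, from 2.03 in the DU145 control to 3.47 in PC3 with siRNA. The ligase genes RNF43 and ZNRF3 had their lowest differences in DU145, at -0.73 and -0.45, and 0.23 and 0.34 in C4-2B. Among the R-spondin genes, whose products hold these ligases off Frizzleds, RSPO3 read 4.90 in the DU145 control and 3.27 with siRNA, and at most 2.26 on every other array. Its difference of -1.63 was among the 0.816% of genes past -1 in DU145. LGR5, an R-spondin receptor and Wnt target gene, read 6.39 and 6.24 in PC3 and at most 3.01 elsewhere, and LGR4 had line means from 6.30 in C4-2B to 8.60 in VCaP.

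Ligand and antagonist genes also separated the lines, WNT2 and DKK1 by a wider range of means (4.41 and 8.59) than FZD4 (3.77). WNT2 read 7.22 and 6.32 in VCaP and at most 2.73 elsewhere, and WNT7A had a mean of 5.58 in PC3 and at most 3.67 elsewhere. DKK1, which blocks LRP5 and LRP6, had means of 10.93 in PC3 and 7.78 in DU145 against 2.39 in C4-2B and 2.35 in VCaP. SFRP1, which holds Wnts away from Frizzleds, had 6.50 in DU145 and at most 4.61 elsewhere. Of intracellular and target genes, LEF1 had 6.77 in VCaP against at most 3.47, TNFRSF19 8.01 in C4-2B and 5.02 in PC3 against at most 2.98, and PYGO1 5.97 in C4-2B against at most 4.34. TCF7L2 ran from 5.59 in C4-2B to 7.63 in PC3. TSPAN12 had 2.98 in C4-2B and 4.27 to 5.21 in the other lines, RECK 7.11 in DU145 and at most 5.88 elsewhere, PRICKLE1 3.17 in C4-2B and 6.22 in PC3, and CELSR1 2.82 in VCaP and 4.36 to 4.94 elsewhere. Apart from FZD4, these genes were picked for the largest ranges of line means in their lists, so a pass between lines was close to given. Each passed the F test between lines (limma, adjusted p below the threshold), as did 62.6% of all genes, which were not picked in that way. NOTUM, picked by the same rule, did not pass (limma F test, adjusted p = 0.475).

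As a description of the patterns, the nearest genes were sought for each receptor by Pearson's r over the 8 arrays, among 10452 genes with a range of at least 1. The 8 points are 4 lines read at 2 treatments, so a high r mostly says that lines rank alike, and no p is given. Nearest to FZD4 were RCBTB2 (r = 0.986) and SLC22A23 (0.984), with means of SLC22A23 of 6.39 for VCaP, 6.11 for PC3, 5.58 for C4-2B and 4.76 for DU145. FZD6 had GALNT1 (0.993) and SERTAD1 (0.987), FZD3 had RFXAP (0.985) and the kinesin gene KIF5C (0.981), and FZD1 had FRMPD1 (0.995) and TAFA4 (0.990). FZD5 had KLRG2 (0.997) and FAM151B (0.968), FZD7 had LOC100130992 (0.996) and TARID (0.994), and FZD2 had SNORA12 (0.986) and NFAT5 (0.972). For FZD9 they were MIR3191 (0.980) and MIR4659A (0.977), and for FZD10 MIR346 (0.975) and LINC01089 (0.955). Within the family, FZD1 with FZD9 had the highest r (0.902), and FZD4 with FZD7 the lowest (-0.828), since DU145 was lowest in FZD4 and highest in FZD7.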

How the data were processed

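Total RNA (400 ng per array) was labelled with a whole-transcript kit, per the labels' protocols. Each probe set has a log2 signal in the deposited table, made with oligo and RMA per the submitters' processing notes, which give no versions. RMA makes the arrays' distributions alike, so a change shared by most genes cannot be seen. Array medians lay between 2.94 and 2.99. No scanner files were used here, and the number of arrays limits the precision.

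Of 53617 probe sets, 23871 had 1 symbol. Symbols were updated through Entrez identifiers for 22569 of them (RefSeq, GRCh38.p14), and of several probe sets per gene the brightest on average was kept. Genes above the 25th percentile of the mean were tested with limma 3.58.1 (R 4.3.3, lmFit and eBayes, 2-sided), with the line as a block, 3 residual degrees of freedom, and Benjamini-Hochberg adjustment over all genes for each contrast at 0.05. Line levels were contrasts of the same fit, with treatment as covariate. The line pairs the arrays: deviations from the group means correlated at 0.864 to 0.918 within lines. P-values measure the spread between 4 lines, which eBayes draws toward that of other genes. With its prior this fit had 7.55 degrees of freedom in total. The fits were tested on simulated data.

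Members and gene lists were chosen with earlier results of these data known. Other genes were named by rule: in each list the 2 largest mean differences and the 2 largest ranges of line means, and the nearest genes. Markers were EPCAM, KRT8, KRT18, VIM, ERG, TMPRSS2, KLK3, PTPRC and CD3E. FZD4-DT, FZD10-AS1 and the direct FZD4 partners (LRP5, LRP6, NDP, RNF43, ZNRF3, TSPAN12) were added with values known. CELSR3, PECAM1, PORCN and TCF7 were not analysed here. Promoter letters came from the RefSeq promoter table, which held 4 of the 9 members. Alternatives covered scaling, filter, probe sets, prior, block and each line left out.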

Additional observations from a re-analysis of the deposited data

Results flagged for a closer look

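In 27 sets of 4 values (control levels, siRNA levels and differences of the 9 Frizzled genes), chance would set apart about 1 in 20. The FZD7 level of 4.92 in the DU145 control stood apart from the other 3 controls, with a gap to the nearest of 0.846 of the whole range, above Dixon's critical value of 0.829. The DNAPK siRNA array of DU145 was the highest of its treatment too, at 4.81, but that set was not flagged. This 1 flag in 27 sets was no more than the share that chance would give.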

How the results depend on the processing

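No alternative passed a Frizzled gene for the siRNA response over all genes, and FZD4 stayed below 0 in each, with an adjusted p of 0.471 or more (limma). At an unadjusted p under 0.05, no replicate block gave 0 Frizzled genes and 63 genes in all, in place of 1 and 1208. An intensity trend with a robust prior gave 2, FZD3 and FZD4, and 1316 genes in all. Of the 1208 genes 58.4% were higher, against 37.6% after median centring and 38.0% with cyclic loess. Median centring gave 6 Frizzled genes between PC3 and VCaP, without a count over all genes at that setting. Signs turned for FZD5 with cyclic loess (-0.0158), for FZD10 with median centring (-0.0180), and for the response contrast of FZD2 with median centring (0.0192) and cyclic loess (0.0121). With 1 line left out, means ran from -0.17 to 0.00474 for FZD1, -0.25 to 0.26 for FZD5, -0.16 to 0.0689 for FZD7, -0.10 to 0.15 for FZD10, -0.00565 to 0.17 for FZD4-DT, -0.0970 to 0.22 for LRP5, -0.23 to 0.0918 for RNF43, -0.22 to 0.0443 for ZNRF3, -0.56 to 0.0491 for RSPO3, -0.13 to 0.23 for WLS and -0.0958 to 0.22 for NOTUM. The medians of the Frizzled genes without DU145 (0.14) and of co-receptors without C4-2B (-0.0234) moved the farthest of those given here. Smaller shifts turned the sign of the Frizzled median with median centring (-0.0180), with cyclic loess (-0.0158) and without VCaP (-0.0392), of the turnover median without DU145 (0.0467), of the polarity median with cyclic loess (-0.000658), without DU145 (-0.00356) and without VCaP (-0.0354), and of the feedback median without C4-2B (0.0157). FZD2 and FZD5 in C4-2B turned with both scalings (-0.0118 and -0.0208, -0.0225 and -0.0359). The cause of these shifts was not tested. With the filter at the 50th percentile FZD10 was not tested. Signals near the filter level, as for FZD10, FZD4-DT, NDP and SFRP4, limit what can be read from them.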
